A study of Mus musculus with 2 samples.

Results

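Astrocytes of the basolateral amygdala were taken as the cells in which Slc1a2, Slc1a3, Aldoc, Gja1, Gjb6, Slc4a4, Aqp4, Ntsr2 and Mlc1, 9 transcripts typical of the type, together made up at least 1.5% of the unique molecules (UMIs) of the cell. The rule was applied to cells that passed minimums of 500 UMIs and 300 genes, with no more than 25% of UMIs from mitochondrially encoded genes. Of 4305 such cells, 285 were astrocytes. They numbered 96 of 2354 cells in the vehicle library (4.08%, exact Clopper-Pearson 95% interval 3.32 to 4.96) and 189 of 1951 cells in the FGF21 library (9.69%, 8.41 to 11.1).

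Adult C57BL/6 mice had been given vehicle or FGF21, a liver-derived hormone, at a dose of 1 mg/kg once daily for 3 days. In both groups tissue of 3 mice was pooled, digested with pronase in the presence of actinomycin D, which blocks new transcription, and sorted for tdTomato fluorescence and for viability with Hoechst dye. The series is titled for cells that express KLB, the FGF21 co-receptor; the promoter or allele behind tdTomato is not named in the sources used here. Each treatment had 1 library. No test was therefore made, every interval covers counting error only, and the treatment, the pool of mice and the library cannot be told apart. Shares of cells describe the sorted suspension, since the tdTomato gate set which cells were loaded.

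Astrocytes clear glutamate and potassium from the synaptic space, return glutamine to neurons, store the brain's glycogen and contact blood vessels with endfeet rich in the water channel aquaporin-4. They are coupled into networks by gap junctions and keep a regional identity that follows the part of the neural tube they arose from, with Lhx2 marking telencephalic lineages and angiotensinogen (Agt) being higher in diencephalic and more caudal ones. In the amygdala they are known to modulate synaptic transmission and fear-related behaviour.

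The astrocyte-gene share separated the cells with few in between. The lowest vehicle astrocyte stood at 1.70% and the lowest FGF21 astrocyte at 1.54%, and the highest cell outside the rule stood at 1.45% in each. Only 3 vehicle and 5 FGF21 cells lay between 1.25% and 1.5%, and 1 and 8 between 1.5% and 1.75%. The median astrocyte had 3.03% and 2.67%, against 0.0892% and 0.160% in all other cells.

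**Figure D1:**
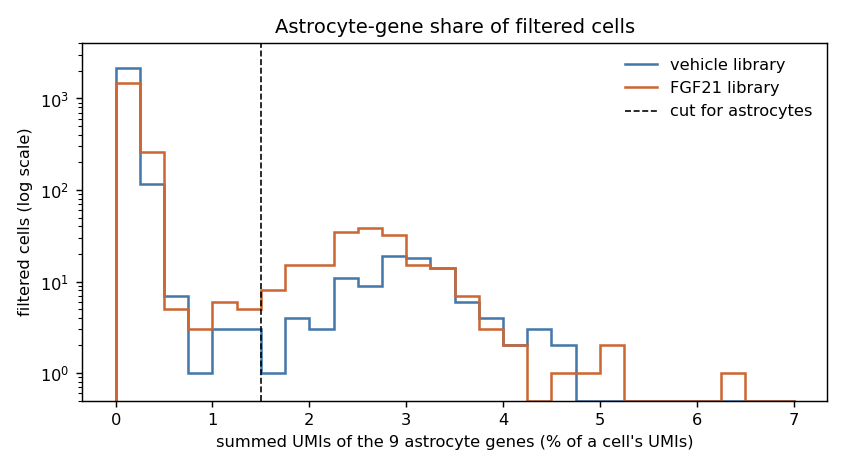
Histogram of filtered cells by the summed share of the 9 astrocyte genes (x axis, percent of the cell's UMIs, in steps of 0.25), with cells on a log scale (y axis) and lines for the vehicle and FGF21 libraries; lines on the lower edge mean no cell. Most cells lay under 0.5%, astrocytes formed a mode near 3%, and few cells lay beside the dashed cut at 1.5%.

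Vehicle astrocytes held 398509 UMIs and FGF21 astrocytes 1190411. The median astrocyte had 4280.5 and 6126 UMIs and 2101 and 2776 genes, so FGF21 astrocytes were the deeper group, as were other FGF21 cells (median 4232 UMIs with vehicle and 6932 with FGF21). The mitochondrial share was 8.05% and 8.28%, higher than in other cells (5.25% and 5.29%). In the 2 libraries 12 barcodes were shared, and 0 astrocytes carried one of them. No astrocyte met the marker rule of another class (0 of 285).

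Of 8 further astrocyte markers, 4 are also rule genes and 4 are not: S1pr1, Slc39a12, Fgfr3 and Sox9. All 4 outside the rule were detected in astrocytes of both libraries. S1pr1, a sphingosine-phosphate receptor, stood at 2203 and 1920 CPM (UMIs per 1000000 UMIs of the cells named) in astrocytes against 61.6 and 72.1 elsewhere. Slc39a12, a zinc importer, stood at 484 and 447 CPM against 10.1 and 14.0. These values describe the cells, since the same cells were chosen by transcripts of the same type. Of the astrocytes, 2 vehicle and 6 FGF21 cells had under 0.3% of the 8 markers, none with over 2405 UMIs.

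Transcripts of other cell types were present in the astrocytes of both libraries. The 9 microglial markers, all of them detected, summed to 11006 CPM in vehicle and 9252 CPM in FGF21 astrocytes, or 31.9% and 40.6% of their level over all filtered cells. Per astrocyte they ranged from 0.458% to 2.62% of UMIs with vehicle and from 0.327% to 2.23% with FGF21. Mural markers were at 647 and 203 CPM, with 2 of 9 at 0 in the vehicle library. Erythroid markers were at 2527 and 1272 CPM, oligodendrocyte precursor markers at 946 and 1751, and oligodendrocyte markers at 881 and 1756. Endothelial markers summed to 50.2 and 139 CPM, and 1 FGF21 astrocyte held 114 of the 165 endothelial UMIs there. Neuronal markers were at 90.3 and 124 CPM with 2 of 9 at 0 in the vehicle library.

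From the microglial, mural, endothelial and erythroid lists the median share of the library profile carried by astrocytes, called background below, came to 31.9% for vehicle and 44.6% for FGF21. The lists differed: over these 4 the share ran from 29.4% to 34.2% with vehicle and from 40.6% to 138% with FGF21. It was 22.6% and 28.5% for the precursor list, 27.9% and 30.8% for the oligodendrocyte list and 22.9% and 30.6% for border macrophages. Counts and ratios that rest on the background are also given, where they change, at the precursor share, the lowest of the lists, which was chosen after the values were seen. A gene is called mostly background where this share of the library's profile predicts over 50% of its UMIs in astrocytes of the library in which it is higher; a value above 100% means that more was predicted than found.

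The tdTomato transcript used for the sort was higher in astrocytes than in other cells in both libraries. It had 87 UMIs (218 CPM) in vehicle and 240 UMIs (202 CPM) in FGF21 astrocytes, a ratio of 0.923 (exact conditional interval 0.720 to 1.19), against 63.0 and 63.5 CPM in other cells. With each cell thinned to 2000 UMIs, which leaves 75 vehicle and 160 FGF21 astrocytes (21 and 29 shallower ones left out), 24.0% and 30.6% of astrocytes had a tdTomato UMI. The thinned share in other cells was 10.3% and 11.2%. Without thinning, 44.8% and 57.1% of astrocytes had one. Klb itself had 0 UMIs in astrocytes of either library.

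Beside the rule genes, the transcripts most specific to these cells covered patterning, signalling and metabolism. Among genes with at least 100 UMIs, the 15 with the highest astrocyte level relative to other cells were Bmpr1b, Elovl2, Gdf10, Gli3, Id4, Fjx1, Fezf2, Lgr4, Atp13a4, Sorcs2, Papss2, Mgst1, Ppp1r3g, S1pr1 and Slc39a12. Bmpr1b, a receptor for bone morphogenetic proteins, was at 158 and 136 CPM against 1.56 and 4.68 CPM in other cells. Gli3, a transcription factor of the hedgehog pathway, was at 171 and 143 CPM against 4.18 and 6.14. Elovl2, which elongates polyunsaturated fatty acids, was at 103 and 84.0 CPM against 0.778 and 3.61. Gdf10, a secreted BMP-like ligand, was at 97.9 and 89.9 CPM against 1.85 and 3.84. Relative to other cells these levels were lower in the FGF21 library, where the level in other cells was higher. Astrocytes held 3.73% of the UMIs of filtered cells with vehicle and 8.37% with FGF21, and the background share was higher with FGF21. A link to either was not tested.

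Telencephalic patterning factors were detected in the astrocytes, while patterning factors of other brain regions were nearly absent and 3 other genes of those regions were present. Of 10 telencephalic genes, 7 had at least 20 UMIs; Emx1 and Tfap2c had 0 and Lef1 had 9 in all. Lhx2, a transcription factor which patterns the cortex and amygdala, was at 193 CPM (exact Poisson interval 152 to 241) in vehicle and 248 CPM (220.3 to 278) in FGF21 astrocytes. In other cells it was at 9.44 and 20.5 CPM.

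Mfge8, a secreted protein that tags debris for uptake and is high in telencephalic astrocytes, was at 2449 and 2552 CPM. Emx2, a factor of the dorsal telencephalon, was at 77.8 and 90.7 CPM, and Fezf2, a forebrain factor, at 62.7 and 73.1 CPM. Six3, known from the ventral and anterior forebrain, was at 55.2 and 80.6 CPM, so that factors of dorsal and of ventral territories were found in the same population. After thinning, 97.3% of vehicle astrocytes (90.7 to 99.7) and 99.4% of FGF21 astrocytes (96.6 to 99.98) had a UMI of the telencephalic list, most often Mfge8. In other cells, which should mostly lack these genes, 40.8% and 50.1% had one. Lhx2 was seen in fewer cells, at 33.3% and 33.1% of thinned astrocytes, against 1.78% and 4.59% of other cells.

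Of 13 non-telencephalic genes, 3 reached 20 UMIs, none of them a patterning factor. Agt, the precursor of angiotensin, had 105 UMIs (263 CPM, 216 to 319) in vehicle and 192 UMIs (161 CPM, 139 to 186) in FGF21 astrocytes. Slc6a11, the GABA transporter GAT3, was at 1034 and 1029 CPM, and Slc6a9, the glycine transporter GlyT1, at 351 and 292 CPM. In thinned astrocytes the mean of Slc6a11 was 1.95 UMIs with vehicle and 2.47 with FGF21. The 10 others, the patterning factors En1, Hoxb3, Hoxb5, Irx1, Irx2, Irx3, Irx5, Lhx9, Otx2 and Pax3, each had under 20 UMIs. Otx2, with 1 and 12 UMIs, and Irx1, with 1 and 9, had the most of these, and background made up 73.4% and 163% of them in the FGF21 library. An Agt UMI was found in 25.3% of thinned vehicle astrocytes (16.0 to 36.7) and in 19.4% of FGF21 astrocytes (13.6 to 26.4), against 1.20% and 1.88% of other cells.

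**Figure D2:**
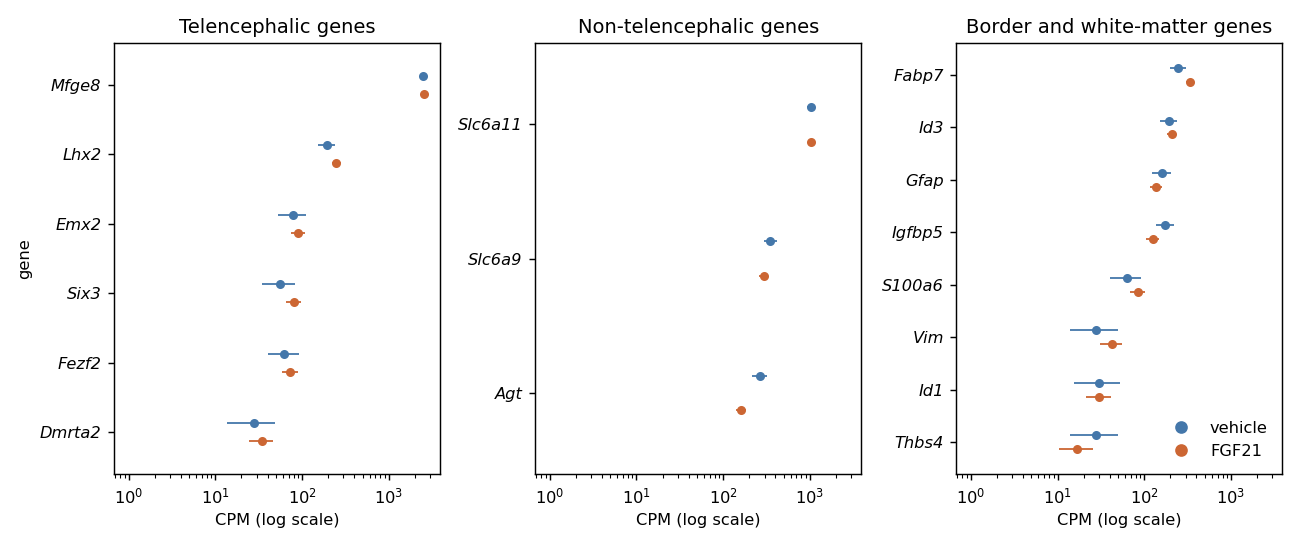
Level of the regional genes reported here, each with at least 20 UMIs in astrocytes (x axis, CPM on a log scale; points are libraries and bars are exact Poisson 95% intervals; left, telencephalic; middle, non-telencephalic; right, border and white-matter genes). Levels of the libraries lie close for most genes, and Agt is lower in the FGF21 library (161 against 263 CPM).

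Markers of border and white-matter astrocytes were present at modest levels. Gfap, the intermediate filament of fibrous astrocytes, was at 161 and 137 CPM and was found in 16.0% and 21.3% of thinned astrocytes. In the vehicle library 1 thinned cell held 8 of its UMIs, and its variance over mean was 4.48 there and 1.37 in the FGF21 library. Id3, a transcriptional inhibitor induced by BMP signals, was at 191 and 207 CPM, and Igfbp5, a binding protein of insulin-like growth factors, at 176 and 125 CPM. Myoc, a marker of surface astrocytes, had 0 UMIs, and Crym and Cd44 were under 20 UMIs. Dio2, which activates thyroid hormone and varies over cortical layers, was at 349 and 361 CPM, and Il33, an alarmin, at 113 and 144.5 CPM. General glial factors were plentiful, with Zbtb20 at 808 and 787 CPM, Nfia at 459 and 430.1, Sox2 at 369 and 439, and Rorb at 409 and 393.

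Astrocytes with an Agt UMI differed from those without in the same way in both libraries. Each thinned astrocyte was sorted by whether it held an Agt UMI: 19 vehicle cells with and 56 without, and 31 FGF21 cells with and 129 without. Slc6a11 was at 1763 against 705 CPM with vehicle (ratio 2.50, 1.78 to 3.51) and at 1774 against 1105 CPM with FGF21 (1.61, 1.28 to 2.01). Slc6a9 had 28 UMIs in each set of vehicle cells, which is 2.95 times the level (1.68 to 5.16) in those with Agt, and was at 516 against 267 CPM (1.93, 1.23 to 2.98). The GABA and the glycine transporter were thus both higher where Agt was seen.

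Etnppl, which breaks down phosphoethanolamine, had 19 UMIs in vehicle cells with Agt and 24 in those without (ratio 2.33, 1.21 to 4.44), and was at 258 against 112 CPM (2.30, 1.16 to 4.37). Sparc, a matricellular protein that antagonises synapse formation, was mostly background (70.3% with vehicle, 97.0% with FGF21) and was at 2132 against 1277 CPM (1.67, 1.26 to 2.21) and at 1774 against 942 CPM (1.88, 1.49 to 2.37). Itih3, a hyaluronan-binding matrix protein, was at 342 against 62.5 CPM (5.47, 2.03 to 16.2) and at 194 against 96.9 CPM (2.00, 0.914 to 4.13). Gja1 was also higher, at 4053 against 3054 CPM (1.33, 1.09 to 1.61) and at 3016 against 2422 CPM. These genes formed the Agt side.

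Slc1a2, the main glutamate transporter GLT-1, was lower with Agt, at 9658 against 12741 CPM (0.758, 0.674 to 0.851) and at 8694 against 10217 CPM (0.851, 0.774 to 0.934). Aqp4 was at 711 against 1080 CPM (0.658, 0.416 to 1.00) and at 597 against 922 CPM (0.647, 0.445 to 0.918). Lhx2 was at 158 against 268 CPM (0.589, 0.201 to 1.44) and at 96.8 against 256 CPM (0.378, 0.134 to 0.868). Mfge8 (0.908, 0.703 to 1.16, and 1.03, 0.861 to 1.23) did not move with Agt beyond counting error.

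Telencephalic factors were seen on both sides of the division. A telencephalic transcription factor had a UMI in 10 of 19 vehicle and 12 of 31 FGF21 astrocytes with an Agt UMI, and in 36 of 56 and 82 of 129 without. With vehicle this was 52.6% (28.9 to 75.6) with Agt and 64.3% (50.4 to 76.6) without. With FGF21 it was 38.7% (21.85 to 57.8) with Agt and 63.6% (54.6 to 71.9) without. The share was thus lower with Agt in both libraries. Overlap of such separate intervals does not show that the shares are equal, and the difference was not tested. A cell without an Agt UMI may still hold Agt transcripts at this depth, and these genes were picked with their values known. A graded and a sharp division cannot be told apart here. Over single cells Agt and Slc6a11 correlated with r = 0.52 in 75 vehicle and 0.26 in 160 FGF21 astrocytes, Agt and Slc6a9 with 0.52 and 0.26, and Slc6a11 and Slc1a2 with -0.39 and -0.31. By rank (Spearman) the values were weaker, at 0.34 and 0.18, 0.41 and 0.16, and -0.21 and -0.24. These cells share a library and were thinned to 1 depth. With the cell's depth before thinning, Agt correlated with r = -0.08 and -0.24, and Slc6a11 with -0.17 and -0.23. The part of depth in the correlations was not tested.

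**Figure D3:**
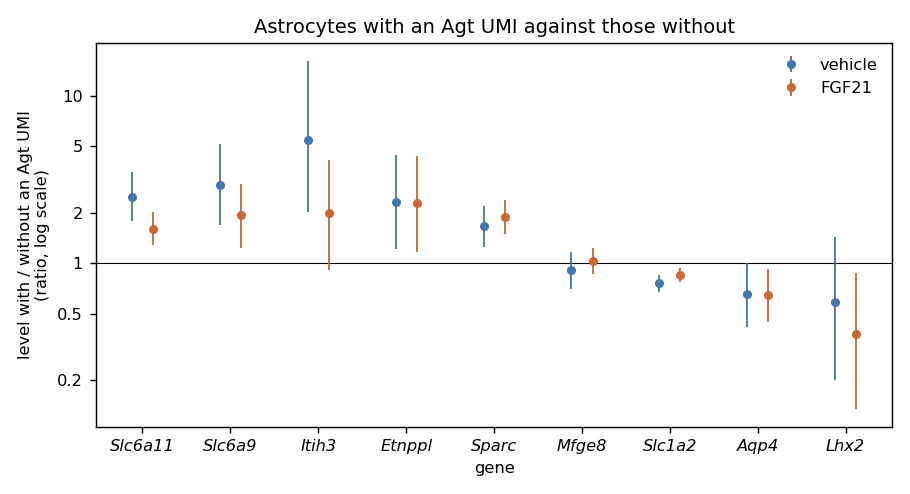
Ratio of the level in thinned astrocytes with an Agt UMI to those without (y axis, log scale; bars are exact conditional 95% intervals, counting error only) for 9 genes (x axis) in the vehicle and FGF21 libraries. Slc6a11, Slc6a9, Etnppl and Sparc lie above 1 and Slc1a2 below 1 in both libraries.

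Apart from these genes, most transcripts had a variance between thinned astrocytes close to their mean. The Fano factor, the variance of UMIs over their mean in thinned cells, is 1 for pure counting. At low counts it stays near 1 even for a gene that varies between cells. Values near 1 therefore do not show an even level. Over 3363 genes with a mean of at least 0.1 UMIs per thinned cell its median was 1.15 with vehicle and 1.09 with FGF21. It reached 1.5 in both libraries for 52 genes, 2 for 10 and 3 for 1. These counts leave out genes of the mitochondrial genome, of ribosomal proteins and of haemoglobins.

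Malat1, a nuclear non-coding RNA, had the widest spread at 16.6 and 15.4. A thinned astrocyte held from 2 to 106 Malat1 UMIs with vehicle (median 19) and from 1 to 128 with FGF21 (median 18). Its level went down with the cell's depth before thinning (r = -0.34 and -0.32) and with Cst3, which encodes the protease inhibitor cystatin C (r = -0.46 and -0.35).

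Slc1a2 followed, with Fano factors of 3.63 and 2.98 and from 4 to 55 UMIs per vehicle astrocyte (median 23) and 4 to 41 per FGF21 astrocyte (median 18.5). Cst3 had 3.48 and 2.63, and Clu, the lipid carrier clusterin, 2.59 and 2.37. Clu and Cst3 went together over cells (r = 0.42 and 0.48). These abundant genes were found in nearly every astrocyte and differed in amount.

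Etnppl and Agt were spread differently, with no UMI in most cells. Etnppl had 0 UMIs in 52 of 75 vehicle and 133 of 160 FGF21 thinned astrocytes, and the 8 vehicle and 16 FGF21 cells with most of it held 60.5% and 75.6% of its UMIs (Fano factors 2.22 and 2.42). As many top cells held 64.4% and 68.8% of Agt UMIs (2.48 and 1.92) and 35.6% and 30.6% of those of Slc6a11 (2.25 and 1.93). Bc1, a non-coding RNA that neurons carry into dendrites, had 5.62 and 2.51, from 0 UMIs in 63 and 139 cells to 11 and 7 in the highest. Thinned to 1000 UMIs, 6 of the 12 most spread genes stayed among the top 12, and Agt, Bod1l, Etnppl, Plpp3 and Slc6a11 were among those that did not.

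**Figure D4:**
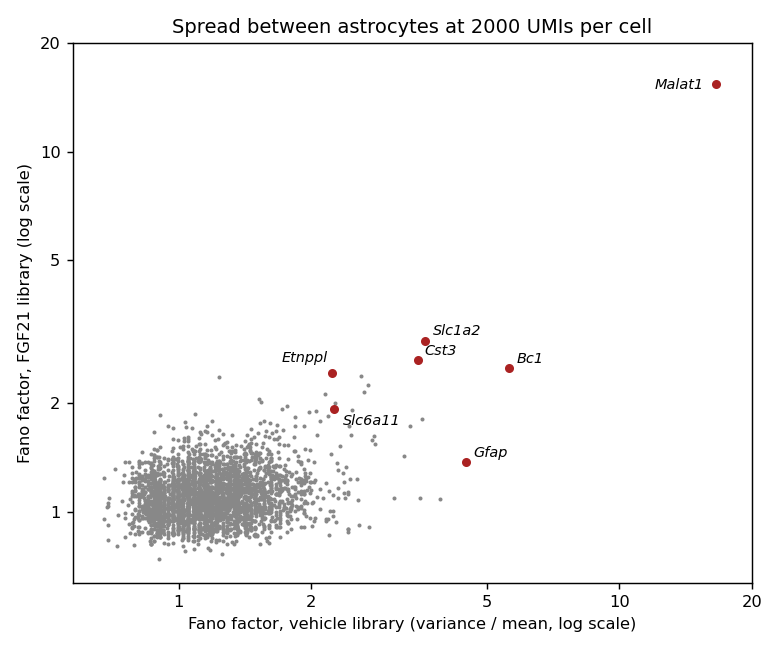
Fano factor (variance over mean of UMIs) of each gene over 75 vehicle (x axis) and 160 FGF21 astrocytes (y axis), both thinned to 2000 UMIs and on log scales; each point is 1 of 3363 genes. Malat1 stands apart at 16.6 and 15.4, and most genes lie near 1; Gfap is high in the vehicle library alone, where 1 cell held 8 UMIs.

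The vehicle and FGF21 astrocytes were alike in most genes. Among 6065 genes that reached 50 UMIs in the summed astrocytes, FGF21 astrocytes had 226 (3.73%) higher and 78 (1.29%) lower by a factor of 2 or more. At 1.5-fold the counts were 728 (12%) and 474 (7.82%), and the median log2 ratio over all these genes, with 0.5 UMIs added to each library, was 0.01. Of these, 116 of the 226 higher and 20 of the 78 lower genes were mostly background, or 39 and 17 at the precursor share. Over all 6065 genes 1847 were mostly background, and the counts here and below are read beside that. No count over all genes was made at the precursor share. With the background subtracted, 3301 genes kept 50 UMIs, of which 164 were 2-fold higher and 127 lower. Without subtraction the same 3301 genes gave 56 and 21.

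The genes furthest apart were ranked by the bound of the interval nearest to 1. Of the 10 highest, 8 were mostly background, or 5 at the precursor share. They include Olig1, an oligodendrocyte lineage factor, at 110 and 326 CPM (2.95, 2.16 to 4.13), and the myelin genes Mag, at 52.7 and 202 CPM (3.84, 2.46 to 6.32), and Cldn11, at 77.8 and 225 CPM (2.89, 1.99 to 4.34). Kif3c, a kinesin, had 0 UMIs in vehicle and 50 in FGF21 astrocytes, at least 5.58-fold higher against a floor of 3 UMIs in the vehicle library. The 2 that were not mostly background were Ccndbp1, with 7 and 92 UMIs, and Phf21b, with 5 and 74. Among the 10 lowest, 4 were mostly background at both shares: Otulinl, Abca9 and the mural genes Rgs5 (241 and 42.0 CPM, 0.174, 0.121 to 0.248) and Vtn (289 and 79.8 CPM, 0.277, 0.208 to 0.366). The summed mural markers were lower in the FGF21 library as a whole too, at 1894 and 458 CPM over all filtered cells.

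Lower genes with little background included Etnppl and Cd38. Etnppl (chromosome 3, 130617448 to 130637521 on GRCm38, as all positions here) was at 243 CPM with vehicle and 102 CPM with FGF21 (0.418, 0.317 to 0.551), with 2.25% background. With each cell counted equally the ratio was 0.507, and in thinned cells it was 0.516 among those with an Agt UMI and 0.525 among those without. Cd38 (chromosome 5, 43868553 to 43912375), which consumes NAD, was at 75.3 and 26.0 CPM, from 30 and 31 UMIs (0.346, 0.203 to 0.592). Lrrc8c, a volume-regulated anion channel subunit, was at 113 and 39.5 CPM (0.350, 0.227 to 0.538), and Atad2b, a chromatin reader, at 141 and 58.8 CPM (0.418, 0.290 to 0.606). Sox5, a Sox-family factor, was at 130.5 and 58.8 CPM (0.451, 0.310 to 0.658), and background made up 13.9% and 51.2% of it. Agt (chromosome 8, 124556534 to 124569706) was at 0.612 of the vehicle level (0.480 to 0.784), and at 0.815 when each cell counted equally. In thinned astrocytes its mean was 0.6 UMIs with vehicle and 0.3 with FGF21.

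**Figure D5:**
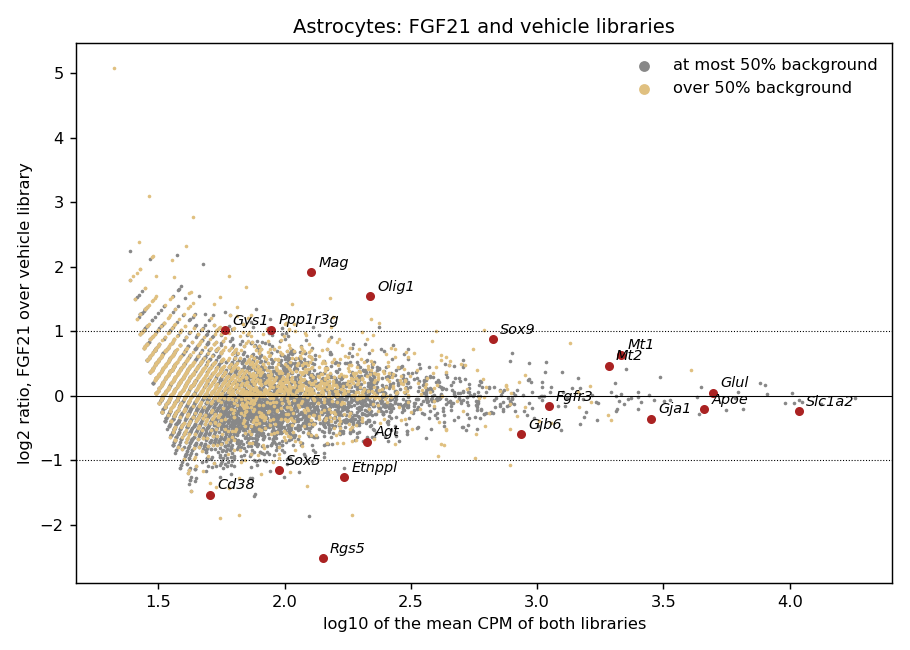
Log2 ratio of FGF21 to vehicle astrocytes (y axis) against the log10 of the mean level of both libraries in CPM (x axis) for 6065 genes; pale points were mostly background and dotted lines mark 2-fold. The uppermost point is Kif3c, whose place depends on the 0.5 UMIs added to 0. Abundant genes lie near 0, Sox9, Mt1 and Mt2 lie above it, and Gja1, Gjb6, Agt and Etnppl below it.

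Sox9, a transcription factor of the astrocyte lineage (chromosome 11, 112782224 to 112787760), was the check marker that differed most. It had 187 UMIs (469 CPM) in vehicle and 1031 UMIs (866 CPM) in FGF21 astrocytes, a ratio of 1.85 (1.58 to 2.17), and 1.46 when each cell counted equally. Among thinned astrocytes 40 of 75 vehicle and 40 of 160 FGF21 cells had 0 Sox9 UMIs. In other cells Sox9 was at 22.8 and 45.8 CPM, a ratio of 2.01; the part of astrocyte RNA in those cells was not tested. The other 3 markers outside the rule lay nearer to 1: S1pr1 at 0.871 (0.806 to 0.943), Fgfr3 at 0.897 (0.806 to 0.999) and Slc39a12 at 0.923 (0.781 to 1.09), and with the background subtracted all 3 came to between 1.02 and 1.08, but to 0.926, 0.947 and 0.981 at the precursor share.

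Coupling and channel genes included lower connexins and channels. Of 19 genes measured, 1 was at least 1.5-fold higher and 3 lower, against 12% and 7.82% of all genes, with a median log2 ratio of -0.20 against 0.01 over all genes. Gja1, or connexin 43 (chromosome 10, 56377330 to 56402513), was at 3177 and 2484 CPM (0.782, 0.732 to 0.836). Gjb6, or connexin 30 (chromosome 14, 57123303 to 57133611), was at 1036 and 689 CPM (0.665, 0.590 to 0.750). Both stayed lower with the background subtracted, at 0.913 and 0.769, and at 0.830 and 0.702 at the precursor share.

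Kcnk1, the potassium channel TWIK-1, was at 442 and 282 CPM (0.639, 0.531 to 0.771), and Lrrc8a, the essential subunit of volume-regulated anion channels, at 253 and 156 CPM (0.617, 0.481 to 0.794). Aqp4 (0.874, 0.778 to 0.982) lay slightly below equality, and came to 1.02 with the background subtracted but to 0.927 at the precursor share. Atp1b2, a subunit of the sodium pump, was at 0.857 (0.817 to 0.899), and came to 0.983 with the background subtracted and 0.902 at the precursor share. Gja1, Gjb6, Aqp4 and the other rule genes helped choose the cells, so their levels are a description.

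Genes of glutamate and GABA handling had ratios near 1. Of 14 measured, 1 was 1.5-fold or more higher and 1 lower, against 12% and 7.82% of all genes, with a median log2 ratio of 0.02. Glul, glutamine synthetase, was at 4903 and 5065 CPM (1.03, 0.982 to 1.09). Slc1a2 was at 11766 and 10001 CPM (0.850, 0.822 to 0.879). Its ratio came to 0.980 with the background subtracted but to 0.896 at the precursor share. Slc1a3, the transporter GLAST, was at 6138 and 6016 CPM (0.980, 0.936 to 1.03), with a ratio of 1.14 with the background subtracted. Slc7a11, the cystine-glutamate exchanger, was at 414 and 417.5 CPM (1.01, 0.844 to 1.21).

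In glycogen metabolism, 2 of 12 genes were more than 2-fold higher in FGF21 astrocytes and 0 were 2-fold lower. The shares over all genes were 3.73% and 1.29%, and both higher genes had few vehicle UMIs. At 1.5-fold, the cut used for the other lists, the counts were also 2 and 0, against 12% and 7.82% of all genes. Ppp1r3g, which targets a phosphatase to glycogen and favours its synthesis (chromosome 13, 35958839 to 35970388), had 23 and 142 UMIs, at 57.7 and 119 CPM (2.07, 1.32 to 3.37). Gys1, the glycogen synthase (chromosome 7, 45434844 to 45456619), had 15 and 93 UMIs, at 37.6 and 78.1 CPM (2.08, 1.20 to 3.86). Ppp1r3c, another targeting subunit, was lower, at 191 and 143 CPM (0.749, 0.568 to 0.995). The phosphorylase Pygb was at 286 and 332 CPM (1.16, 0.939 to 1.44), and the list's median log2 ratio was 0.08.

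Of 19 glycolytic genes measured, 5 were 1.5-fold or more higher and 0 lower, against 12% and 7.82% of all genes, with a median log2 ratio of 0.29. The glucose transporter Slc2a1 was at 85.3 and 157 CPM (1.84, 1.27 to 2.74) and the enolase Eno1 at 151 and 265 CPM (1.76, 1.33 to 2.36). Gapdh was at 765 and 1086 CPM (1.42, 1.25 to 1.61; 1.21 with each cell counted equally), and Pfkm, a phosphofructokinase, at 309 and 245 CPM (0.795, 0.642 to 0.989). Respiratory chain genes encoded in the nucleus had 3 of 22 at least 1.5-fold higher, near the share over all genes, and a median of 0.31, and ribosomal protein genes 6 of 21 and 0.42. In the last list 20 of 21 genes were mostly background, or 10 at the precursor share.

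The genes of sterol synthesis and lipid carriers that were 1.5-fold apart were all higher in FGF21 astrocytes. Of 20 genes, 6 were 1.5-fold or more higher and 0 lower, where 12% and 7.82% of all genes were, with a median log2 ratio of 0.09. The higher ones included Hmgcs1, a synthase early in cholesterol synthesis, at 166 and 265 CPM (1.60, 1.22 to 2.12). Insig1, which holds back the sterol sensor, was at 188 and 307 CPM (1.63, 1.27 to 2.12), but at 0.507 and 0.512 UMIs per thinned cell. Apoe, the main lipid carrier, was at 4921 and 4257 CPM (0.865, 0.821 to 0.912) and Clu at 4319 and 4273 CPM (0.990, 0.937 to 1.05). With the background subtracted Apoe came to 0.955 and Clu to 1.12, and at the precursor share to 0.892 and 1.03. Of 14 genes of fatty acid oxidation and ketone use, 0 were 1.5-fold apart in either direction, and the median was -0.08.

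The metallothioneins, small proteins that bind zinc and copper, were all higher in FGF21 astrocytes. Mt1 had 668 and 3098 UMIs, at 1676 and 2602 CPM (1.55, 1.43 to 1.69), Mt2 was at 1614 and 2231 CPM (1.38, 1.27 to 1.51), and Mt3, the brain form, at 1097 and 1410 CPM (1.29, 1.16 to 1.43). In other cells their ratios were larger, at 2.96, 4.04 and 1.79, and in cells with at least 3% of microglial marker UMIs at 3.40, 4.44 and 2.06. The higher level in the FGF21 library was thus measured in other cells as well. Mt1 and Mt2 correlated over thinned astrocytes with r = 0.18 with vehicle and 0.44 with FGF21. Of 21 redox and metal genes measured, 5 were at least 1.5-fold higher and 0 lower, where 12% and 7.82% of all genes were, with a median log2 ratio of 0.20.

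Because all 3 metallothionein genes were higher, their promoters are shown, from 250 bases before to 50 bases after the start, as RefSeq on GRCm38.p6 gives them, 5′ to 3′ on the plus strand on which they are transcribed. Capitals mark the core of the metal response element, the site of the zinc-sensing factor MTF-1, searched as TGCACNC or TGCGCNC on both strands. The windows lie at chr8:94178839-94179138, chr8:94172368-94172667 and chr8:94152357-94152656.
Mt1: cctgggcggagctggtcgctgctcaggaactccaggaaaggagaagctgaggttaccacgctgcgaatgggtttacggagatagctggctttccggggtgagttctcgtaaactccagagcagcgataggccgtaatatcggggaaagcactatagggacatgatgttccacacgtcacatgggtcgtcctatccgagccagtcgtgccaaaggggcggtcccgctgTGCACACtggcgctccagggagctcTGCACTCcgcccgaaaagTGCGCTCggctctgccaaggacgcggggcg
Mt2: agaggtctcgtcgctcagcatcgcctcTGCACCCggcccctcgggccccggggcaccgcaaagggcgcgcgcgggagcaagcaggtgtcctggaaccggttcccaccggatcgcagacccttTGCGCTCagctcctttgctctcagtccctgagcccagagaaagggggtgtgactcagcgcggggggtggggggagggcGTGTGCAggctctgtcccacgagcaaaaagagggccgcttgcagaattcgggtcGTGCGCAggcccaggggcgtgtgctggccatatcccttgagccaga
Mt3: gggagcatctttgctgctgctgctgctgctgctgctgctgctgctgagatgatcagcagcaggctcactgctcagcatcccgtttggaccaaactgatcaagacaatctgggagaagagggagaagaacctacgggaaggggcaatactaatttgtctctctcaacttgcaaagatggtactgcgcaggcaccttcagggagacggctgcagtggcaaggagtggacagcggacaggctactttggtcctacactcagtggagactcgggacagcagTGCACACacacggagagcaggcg
The core occurs 3 times in the Mt1 window, 4 times in that of Mt2 and 1 time in that of Mt3. Of 32851 promoter windows of the same length, 25.7% hold at least 1, 1.97% at least 3 and 0.517% at least 4. A match of letters is a description only.

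The receptors through which FGF21 signals had ratios near 1. Fgfr3 (chromosome 5, 33721674 to 33737068) was at 1172 and 1051 CPM, Fgfr1 at 271 and 263 CPM (0.970, 0.777 to 1.22) and Fgfr2 at 158 and 162 CPM (1.03, 0.768 to 1.39). Of 10 genes of the receptor complex measured, 2 were at least 1.5-fold higher and 0 lower, against 12% and 7.82% of all genes, with a median log2 ratio of 0.19. The 2 were the ligand Fgf1, at 40.1 and 67.2 CPM (1.67, 0.970 to 3.07), and the exchange factor Sos1, at 30.1 and 51.2 CPM (1.70, 0.907 to 3.47), and both intervals include 1. Fgfr4 had 0 UMIs, as had Klb.

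Of 11 feedback genes of the ERK pathway measured, 3 were at least 1.5-fold higher and 0 lower, beside the same 12% and 7.82%, with a median log2 ratio of 0.13, and 4 were mostly background. Spry2, a feedback inhibitor, was at 201 and 204 CPM (1.02, 0.787 to 1.33), Spred1 at 356 and 367 CPM (1.03, 0.851 to 1.25) and Etv5, a transcription factor downstream of FGF, at 198 and 250.3 CPM (1.26, 0.982 to 1.64). Dusp6, an ERK phosphatase, was at 183 and 145 CPM (0.793, 0.600 to 1.06) and mostly background. Of the 3 higher genes Ccnd1 (220%) and Phlda1 (88.2%) were mostly background, and the interval of Spred3 included 1 (0.839 to 3.70).

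Counts of other lists are read beside the shares over all genes, 12% at least 1.5-fold higher and 7.82% lower. Those of mostly background genes are read beside 1847 of 6065. Of 12 insulin and leptin genes and of 19 synapse-shaping genes, 0 were 1.5-fold apart; Sparcl1 was at 7006 and 6084 CPM (0.868, 0.831 to 0.908) and Bcan, a perineuronal net proteoglycan, at 2773 and 3380 CPM (1.22, 1.14 to 1.30). Of 11 receptors for neuromodulators, 0 were higher and 1, the microglial P2ry12 (181% background), was lower. Of 19 Notch, hedgehog, BMP and Wnt genes, 2 were higher and 0 lower, while Ptch1, a hedgehog target and receptor, was at 364 and 249 CPM (0.683, 0.558 to 0.839). Of 18 heat-shock and endoplasmic reticulum genes, 0 were higher and 1, Hsph1, was lower (0.416, 0.271 to 0.644), with a median log2 ratio of -0.28 and 10 of 18 mostly background (0 at the precursor share). Immediate early genes had 2 of 5 higher, with 4 of 5 mostly background (1 at the precursor share). Of 9 reactive and inflammatory genes, 1 was higher and 1 lower, and 6 were mostly background (3 at the precursor share).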

How the data were processed

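Single-cell transcriptomes were measured in 2 libraries, vehicle and FGF21, with the BD Rhapsody system. Per the file headers, the deposited tables hold counts of unique molecules for each cell and gene from version 1.9.1 of the BD WTA Rhapsody pipeline. The build was GRCm38, per the submitters' processing notes; for the counting annotation and the cell-calling settings, no source used here gives a value. Gene positions are from GENCODE on GRCm38.

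UMIs were summed over astrocytes per library and divided by their total (CPM). Ratios have exact conditional-binomial 95% intervals, shares exact Clopper-Pearson intervals, and levels exact Poisson intervals. Cells were thinned to 2000 UMIs (seed 1) for shares and Fano factors. Doublets were not removed; Scrublet (scanpy 1.11.5) called 17 and 16 cells, 1 astrocyte in each library. Alternatives were other astrocyte and cell cuts, other gene minimums, scaling by TMM (edgeR 4.0.16), equal weight per cell and background subtraction. The ratio step was tested on simulated data.

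Named genes were the rule and marker genes, the 4 most abundant members of each list and any 2-fold apart with an interval without 1, all FGF receptor complex and detected regional genes, the 10 genes furthest apart in each direction by the interval bound nearest to 1 (detected in 10% or more of the cells of the higher library, no cell holding over 20% of the UMIs), the 12 most spread and the 15 most specific genes. Other list members are named as examples of a count, and Agt co-variation, Sox9 and Ptch1 were followed with values known. The members, lists and rules were chosen with earlier results of these data known. Some named genes are not reported here.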

Additional observations from a re-analysis of the deposited data

How the results depend on the processing

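No paired analysis was possible because each treatment had 1 library, and no replicate could be left out. The number of astrocytes kept within 1.5 times under every cell setting run (lowest 66 and 132, at a mitochondrial share of at most 10%), but at that limit their share fell to 2.99% of vehicle and 7.57% of FGF21 cells. The counts of genes at least 2-fold higher and lower in the FGF21 library (226 and 78) became 341 and 178 with each cell counted equally, 164 and 127 among 3301 genes with the background subtracted (56 and 21 among the same genes without subtraction), 61 and 20 among genes with at least 100 UMIs, and 1211 and 1342 among genes with at least 1 UMI in each library, where few UMIs make large ratios. Thinned to 1000 UMIs, 12 genes rather than 52 had a Fano factor of at least 1.5, out of 1441 genes rather than 3363. The share of astrocytes with a UMI of the telencephalic list was then 88.0% and 90.5% (96.3% for FGF21 without thinning) and of the non-telencephalic list 71.1% and 72.6%, against 85.3% and 94.4%. Of the named genes' ratios, TMM scaling and scaling without mitochondrial and ribosomal genes left 179 of 179 within their intervals, equal weight per cell moved 15 of 179, and background subtraction moved 53 of 168, turning ratios such as those of Aqp4, S1pr1, Fgfr3, Acsl3 and Hspa5 from below to above 1 and Rplp1 from above to below. At the lower background share of the precursor list, added after the data were seen, 192 genes were higher and 112 lower, and 22 of 176 ratios moved; Aqp4, S1pr1, Fgfr3, Acsl3 and Hspa5 then stayed below 1 and Rplp1 above it. Changing the astrocyte cut to 1.0% or 2.0% moved 1 of 179 ratios each. Depth limits what can be said of genes near 50 UMIs and of transcription factors seen in few cells.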

Other observations

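Some astrocyte genes, chosen after their values were seen, differed between the libraries. Zbtb16, a transcription factor induced by glucocorticoids, had 23 UMIs in vehicle and 7 in FGF21 astrocytes (57.7 and 5.88 CPM, ratio 0.102, 0.0369 to 0.245), under the minimum of 50 UMIs used for the counts. Its ratio was 0.0899 in microglia-marked and 0.139 in oligodendrocyte precursor-marked cells. Of other glucocorticoid-responsive genes in astrocytes, Klf9 was also lower, at 361 and 249 CPM (0.688, 0.562 to 0.846). Tsc22d3 was at 299 and 288 CPM (0.965, 0.781 to 1.20) and Ddit4 at 130.5 and 190 CPM (1.45, 1.07 to 2.01). Among 8 glucocorticoid genes measured, 0 were at least 1.5-fold higher and 1 lower, against 12% and 7.82% of all genes. Their median log2 ratio was -0.10.

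Core clock genes were measured in both libraries, and among 13 that reached 50 UMIs, 0 were 1.5-fold higher and 2 were 1.5-fold lower. Over all genes the shares were 12% and 7.82%. The 2 lower genes were Arntl, at 50.2 and 31.9 CPM (0.636, 0.361 to 1.15), and Cry1, at 47.7 and 26.9 CPM (0.564, 0.310 to 1.05). Both intervals include 1. The output gene Dbp was at 100.4 and 146 CPM (1.46, 1.03 to 2.11), and Nr1d1, a repressor of Arntl, at 550 and 643 CPM (1.17, 1.00 to 1.37). The labels used here do not give the hour of tissue collection.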
